A study of Mus musculus with 74 samples.

Results

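The genes described here are 9 genes of the tubules and duct of the mesonephros, the embryonic kidney that lies against the gonad: the transcription factors Lhx1, Pax2, Pax8 and Gata3, the adhesion proteins Cdh16 and Cdh1, and the keratins Krt8, Krt18 and Krt19. They were taken by gene symbol, and all 11 of their probes on the array were followed, out of 25697 probes that named 16593 genes. Transcript levels had been measured on 74 arrays, each of 1 pair of mouse gonads cut away from the mesonephroi, so that every array was a separate embryo. The embryos were XX or XY, of the inbred strains 129S1/SvImJ (129S1) and C57BL/6J (B6), with no mutation or treatment in any group, and were collected at 6 evenly spaced stages that ran from embryonic day 11.0 (E11.0) through E11.2 and so on to E12.0. Of the 24 groups of strain, sex and stage, 21 held 3 arrays, 129S1 XY at E11.0 held 5, B6 XY at E11.2 held 4 and 129S1 XY at E12.0 held 2. Each strain had 37 arrays, 36 arrays were XX and 38 were XY. The question asked of the 9 genes was whether they moved together from embryo to embryo, and whether they differed with strain, sex and stage.

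The mesonephric (Wolffian) duct is an epithelial tube that runs along the embryonic kidney, induces its tubules and later gives rise in males to the epididymis and vas deferens. Pax2 and Pax8 specify the nephric lineage, Lhx1 and Gata3 act downstream of them in the duct, and Cdh16, also called kidney-specific cadherin, marks the tubule and duct epithelium. E-cadherin (Cdh1) and the simple-epithelium keratins are less particular to it: E-cadherin is also made by germ cells, and Krt8, Krt18 and Krt19 by the coelomic epithelium and by somatic cells of the early gonad. In tissue taken whole, fewer cells of a type and less RNA per cell cannot be told apart.

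Levels are given as the log2 normalized signal of a probe, and differences between groups as differences of mean log2 signal ± standard error. The median signal over all probes was 7.40 on a typical array, with quartiles at 7.17 and 8.46, and levels of different probes are not comparable with each other. Tests were run on the 12000 brightest probes, ordered by the second brightest array of each probe's brightest group, of which the dimmest stood at 7.67. Of the 9 genes, 8 had a probe among these. Both Pax2 probes lay below that limit, at 6.83 to 7.38 and 7.0 to 7.54 over all arrays, and so did a second Pax8 probe, at 6.98 to 7.42. Pax2, a defining gene of the duct, was therefore below the limit in all 24 groups. The 2 Pax2 probes correlated weakly with each other within groups (r = 0.21), as did the 2 Pax8 probes (r = 0.10).

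Among the probes that passed, Krt8 ranged from 8.94 to 10.07 (median 9.44), Krt18 from 7.52 to 8.55 (median 8.10), Cdh1 from 7.37 to 8.48 (median 7.73) and Lhx1 from 7.09 to 9.28 (median 7.65). Krt19 ranged from 7.11 to 8.27 (median 7.44), Pax8 from 7.05 to 7.85 (median 7.41), Gata3 from 6.99 to 8.03 (median 7.37) and Cdh16 from 7.0 to 8.80 (median 7.23). Cdh16 thus lay near the bottom of the scale on most arrays, with 6 arrays over 8. It passed the limit through 1 of the 24 groups, B6 XX at E11.0. Pax8 and Gata3 passed narrowly, at 7.68 and 7.69, also through 1 group each, which was 129S1 XX at E12.0 for both. Krt19 did so in 3 groups, Lhx1 in 11, Cdh1 in 15, Krt18 in 23 and Krt8 in 24. The standard deviation within groups was largest for Cdh16 (0.35), followed by Lhx1 (0.25), Gata3 (0.20), Krt8 (0.19), Krt18 (0.18), Pax8 (0.18), Cdh1 (0.16) and Krt19 (0.15), beside a median of 0.17 over all tested probes. The 2 Pax2 probes, at 0.11 and 0.08, varied as the untested probes did (median 0.10).

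**Figure D1:**
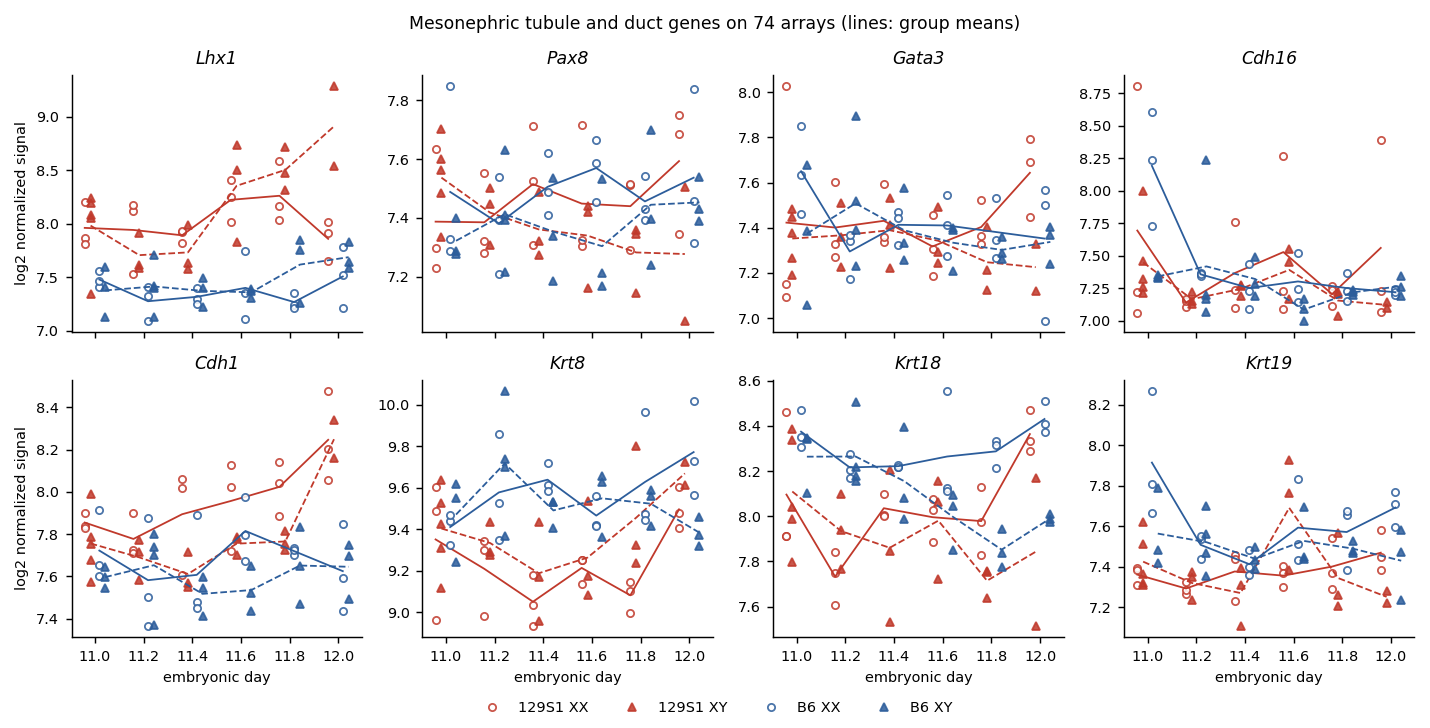
Log2 normalized signal of the 8 genes with a tested probe, 1 point per array, against embryonic day; red marks 129S1 and blue B6, open circles XX and triangles XY, and lines join group means (solid XX, dashed XY). Lhx1 separated the strains and reached 9.28 in 129S1 XY at E12.0, while Cdh16 stayed near 7.2 apart from single arrays and the B6 XX group at E11.0.

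Strain was the factor with the most differences. Of the 8 genes, 5 differed between 129S1 and B6 over both sexes and all stages, where 31.6% of all tested probes did (limma, Benjamini-Hochberg adjusted p under 0.05). They did not differ in one direction: Lhx1 and Cdh1 were higher in 129S1, as were 16.6% of all probes, and the 3 keratins were lower, as were 15%. The median difference of the 8 genes was −0.02, beside 0.02 over all probes.

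Lhx1, a LIM homeodomain factor, had the largest strain difference of the genes. Its signal was 7.35 at the lowest, 8.04 at the median and 9.28 at the highest in 129S1, and 7.09, 7.40 and 7.85 in B6. Most 129S1 arrays therefore lay above every B6 array. The group means averaged 8.11 in 129S1 and 7.42 in B6, a difference of 0.69 ± 0.06 (adjusted p = 1.1e-15). By stage, the ranges of the strains did not overlap in XX gonads from E11.0 to E11.8 or in XY gonads from E11.4 to E12.0, and did at E12.0 in XX and at E11.0 and E11.2 in XY. Here and below, separation of groups this small is a description, and the share of all probes so separated was not computed. The single comparisons that passed were XX at E11.2 (0.66), E11.6 (0.82) and E11.8 (0.99) and XY at E11.0 (0.60), E11.6 (0.99), E11.8 (0.88) and E12.0 (1.22). With 1 array left out, the call was lost for 4 arrays at XX E11.2 (adjusted p up to 0.18), 2 at XX E11.6 (0.069), 6 at XY E11.0 (0.23), 1 at XY E11.8 (replicate 2 of B6, 0.70, adjusted p = 0.059) and 1 at XY E12.0 (replicate 1 of 129S1), and for none at XX E11.8 and XY E11.6. With all probes of the array tested, XX at E11.2 did not pass (adjusted p = 0.056).

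The keratins lay on the other side. These are paired filament proteins of simple epithelia, Krt8 of type II and Krt18 and Krt19 of type I. Krt8 was 8.94, 9.29 and 9.80 in 129S1 (lowest, median, highest) and 9.24, 9.53 and 10.07 in B6, a difference of −0.24 ± 0.04 (adjusted p = 9.3e-06). Krt18 was 7.52, 7.99 and 8.47 in 129S1 and 7.77, 8.22 and 8.55 in B6, a difference of −0.22 ± 0.04 (adjusted p = 1.4e-05). Krt19 was 7.11, 7.37 and 7.93 in 129S1 and 7.23, 7.50 and 8.27 in B6, a difference of −0.18 ± 0.04 (adjusted p = 4.9e-05). For each keratin the strains overlapped over most of their range, and the shifts were of about the size of the spread within a group.

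In single groups, 4 keratin differences passed. Krt8 differed in XX at E11.4, with 9.04, 8.94 and 9.18 in 129S1 against 9.62, 9.58 and 9.72 in B6 (−0.59, adjusted p = 0.010), and at E11.8, with 9.15, 9.10 and 9.0 against 9.47, 9.96 and 9.45 (−0.55, adjusted p = 0.026). Krt18 differed in XX at E11.2, with 7.61, 7.75 and 7.84 against 8.28, 8.20 and 8.17 (−0.48, adjusted p = 0.031). Krt19 differed in XX at E11.0, with 7.31, 7.39 and 7.38 against 7.67, 8.27 and 7.81 (−0.55, adjusted p = 0.0015). None of these groups overlapped, and the Krt19 value rested on the B6 array at 8.27, without which it was −0.38 (adjusted p = 0.10). The other calls were lost with any 1 of 2 arrays left out for Krt8 at E11.4 (adjusted p up to 0.074), of 3 at E11.8 (0.30, with −0.38 without replicate 2 of B6), and of 5 for Krt18 (0.17), which did not pass with all probes tested either (adjusted p = 0.0504).

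Cdh1, E-cadherin, which joins epithelial cells, was 7.55, 7.79 and 8.48 in 129S1 and 7.37, 7.65 and 7.98 in B6 (lowest, median, highest), a difference of 0.24 ± 0.04 (adjusted p = 2.2e-07). Its group mean was higher in 129S1 at every stage in each sex, by 0.04 to 0.62, and the single comparisons passed at E12.0 alone. There the XX arrays read 8.06, 8.20 and 8.48 in 129S1 and 7.59, 7.85 and 7.44 in B6 (0.62 ± 0.13, adjusted p = 0.00052), and the XY arrays 8.34 and 8.16 in 129S1 and 7.49, 7.70 and 7.75 in B6 (0.60 ± 0.14, adjusted p = 0.0035). With these, 13 passed over every combination of the 8 genes with the 12 single strain comparisons. Of the same combinations over all tested probes 5.23% passed. No comparison of Cdh16, Pax8 or Gata3 was among them.

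Cdh16, Pax8 and Gata3 differed between strains by −0.02 each (adjusted p = 0.91, 0.76 and 0.82). Cdh16 had a median of 7.22 in 129S1 and 7.24 in B6, Pax8 of 7.42 and 7.41, and Gata3 of 7.36 and 7.39.

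**Figure D2:**
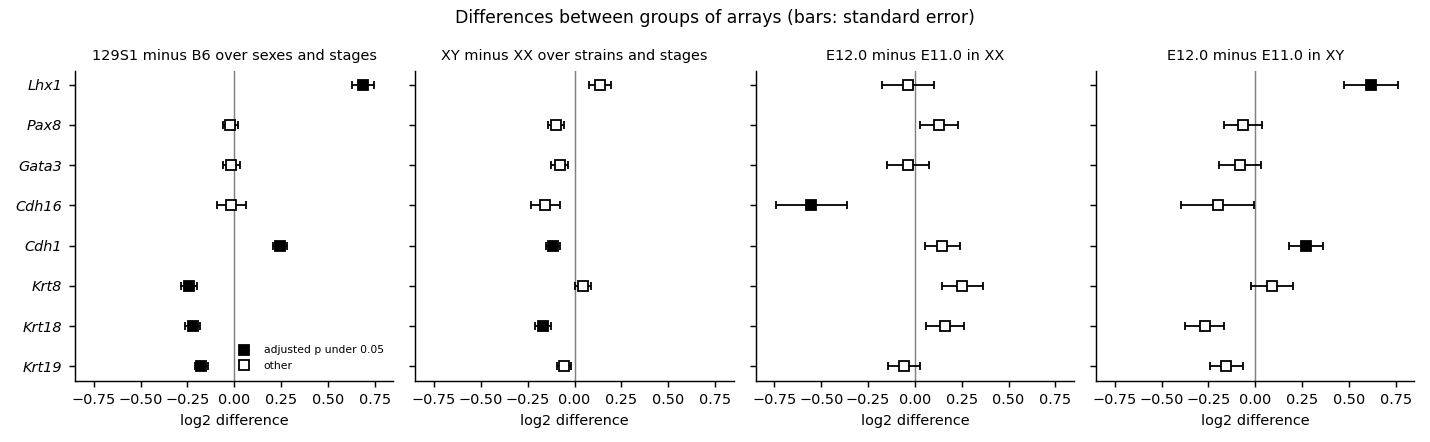
Differences of mean log2 signal of the 8 genes for strain, sex and the change over the day in XX and in XY gonads; squares are estimates, bars standard errors, filled squares adjusted p under 0.05 among the tested probes (for Cdh16 in XX the probe was admitted through the E11.0 group itself). For strain, Lhx1 (0.69) and Cdh1 (0.24) lie to the right of 0 and the 3 keratins (−0.18 to −0.24) to the left.

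Sex differences were fewer. Over strains and stages 2 of the 8 genes differed between XY and XX gonads, where 11% of all probes did, and both were lower in XY, as were 5.36% of all probes. Krt18 was 7.52, 8.03 and 8.50 in XY (lowest, median, highest) and 7.61, 8.21 and 8.55 in XX, a difference of −0.17 ± 0.04 (adjusted p = 0.0026). Cdh1 was lower in XY by a mean of 0.12 (−0.12 ± 0.04, adjusted p = 0.028), which did not pass without replicate 2 of 129S1 XY at E12.0 (−0.11, adjusted p = 0.059) or replicate 2 of B6 XX at E11.4 (−0.10, adjusted p = 0.052), nor with array weights (−0.09, adjusted p = 0.090). The median difference of the 8 genes was −0.09, beside −0.003 over all probes.

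The sex difference of Krt18 changed with stage (sex by stage term, adjusted p = 0.035), the one gene of the 8 for which it did, where the term passed for 6.08% of all probes. The count of genes passing moved from 1, to 0 or 2, for 13 of the 74 arrays left out singly, among them replicate 1 of 129S1 XY at E12.0 (0) and replicate 2 (2). At E11.0 the group means of XX and XY were 8.10 and 8.11 in 129S1 and 8.37 and 8.26 in B6. At E12.0 they were 8.36 and 7.84 in 129S1 and 8.43 and 7.99 in B6. In B6 the E12.0 arrays did not overlap, with 8.41, 8.37 and 8.51 in XX against 8.01, 7.99 and 7.97 in XY. No gene passed for sex by strain (0.292% of all probes), stage by strain (0.325%) or all 3 factors (0.0917%). At an unadjusted p under 0.05, Krt8 did for sex by strain, Lhx1, Krt8 and Cdh1 did for stage by strain, and none did for all 3 factors.

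Over every combination of the 8 genes with the 12 single sex comparisons, 2 passed, both in 129S1 at E12.0. Of the same combinations over all tested probes 1.92% passed. Lhx1 read 9.28 and 8.53 in XY and 7.91, 7.65 and 8.02 in XX, a difference of 1.05 ± 0.22 (adjusted p = 0.00059). Krt18 read 7.52 and 8.17 in XY and 8.33, 8.47 and 8.29 in XX, a difference of −0.52 ± 0.16 (adjusted p = 0.035, and 0.061 with all probes tested). The same array, replicate 1 of the 2 in 129S1 XY at E12.0, was the high one for Lhx1 and the low one for Krt18. Without it the differences were 0.68 (adjusted p = 0.24) and −0.19 (adjusted p = 0.96), with the lone remaining array taken to vary as the other groups did.

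Stage passed for 2 of the 8 genes, Lhx1 (adjusted p = 0.0017) and Cdh1 (adjusted p = 0.0077), where it did for 23.1% of all probes. Between E11.0 and E12.0 both rose in XY gonads, as did 7.58% of all probes, Lhx1 by 0.62 ± 0.14 (adjusted p = 0.00088) and Cdh1 by 0.27 ± 0.09 (adjusted p = 0.032, and 0.051 with all probes tested). In XX gonads 6.03% of all probes fell. The change of Cdh16 there was −0.55 ± 0.19, but its E11.0 arrays include the 1 group through which the probe passed the limit, so that a test among the tested probes would draw on its own selection. With all probes of the array tested, where no limit entered, the change did not pass (adjusted p = 0.087). The median change of the 8 genes was 0.05 in XX and −0.07 in XY, beside −0.01 in each over all probes.

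The rise of Lhx1 and Cdh1 passed in 129S1. In 129S1 XY gonads Lhx1 read 8.05, 8.08, 7.35, 8.19 and 8.24 at E11.0 and 9.28 and 8.53 at E12.0 (0.93 ± 0.20, adjusted p = 0.00071), passing through group means of 7.71, 7.73, 8.35 and 8.50 in between. Cdh1 read 7.79, 7.58, 7.68, 7.99 and 7.75 at E11.0 and 8.34 and 8.16 at E12.0 (0.49 ± 0.13, adjusted p = 0.0066). In neither case did the first and last groups overlap. In B6 XY gonads the group means were 7.38 and 7.69 for Lhx1 and 7.60 and 7.65 for Cdh1, and neither change passed. The stage by strain term did not pass for either gene (adjusted p = 0.93 and 0.40). Without replicate 1 of 129S1 XY at E12.0 none of these changes passed: Lhx1 rose by 0.55 in 129S1 XY (adjusted p = 0.26) and by 0.43 over both strains (adjusted p = 0.066), and Cdh1 by 0.40 (adjusted p = 0.21) and 0.23 (adjusted p = 0.18). The latter was also lost with any 1 of 4 other arrays left out. The strain differences in XY at E12.0 rested on the same array, being 0.85 for Lhx1 (adjusted p = 0.099) and 0.51 for Cdh1 (adjusted p = 0.18) without it.

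The change of Cdh16 was greatest in B6 XX gonads. The 3 arrays at E11.0 read 7.73, 8.24 and 8.60, and those at E12.0 read 7.20, 7.24 and 7.22, a change of −0.97 ± 0.27 (adjusted p = 0.037 with all probes tested). The E11.0 group was the highest of the 24 for Cdh16, and by E11.2 the 3 arrays read 7.35 to 7.36. B6 XY gonads of the same stage read 7.35, 7.33 and 7.34. This was the 1 group through which the Cdh16 probe passed the brightness limit, so the p among the probes over that limit is not given. Even among those probes the call was lost without any 1 of 3 arrays. Without replicate 3 of B6 XX at E11.0 the change was −0.77 (adjusted p = 0.11), without replicate 2 it was −0.95 (0.067), and without replicate 1 at E12.0 it was −0.96 (0.057). In 129S1 XX gonads the arrays read 7.22, 7.06 and 8.80 at E11.0 and 7.07, 8.39 and 7.23 at E12.0, so that 1 array of each group stood far above the others. Without the array at 8.80 the change over both strains was −0.28. The call of Cdh16 in B6 XX among the tested probes is not counted here, as it draws on its own selection. Apart from it, the single changes of the 8 genes that passed were those of Lhx1 and Cdh1 in 129S1 XY. Over every combination of the tested probes with the 4 comparisons, 7.36% passed.

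Whether the genes moved together was read from the deviation of each array from the mean of its own group, which removes strain, sex and stage. Over the 28 pairs of the 8 genes, the median Pearson correlation over 74 arrays was 0.10, with a range from −0.35 to 0.56, and 10 pairs were below 0. Over all 71994000 pairs of tested probes the median was 0.003 and 49.6% were below 0, against 35.7% of the 28. A correlation over 0.25 was found in 28.6% of the 28 pairs and in 20.2% of all pairs, and one over 0.4 in 14.3% and 9.08%. The list as a whole was thus not one block, and what co-movement it held lay in a few pairs.

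Those pairs were among Gata3, Cdh16, Krt18 and Pax8. Pax8 and Gata3, both transcription factors of the duct, had r = 0.56 (Spearman's rho = 0.55, permutation p = 3e-05, adjusted p over all probes = 0.00019 with Pax8 as the covariate), and 0.51 without the 2 arrays farthest for Pax8. Both probes were admitted through the same group, 129S1 XX at E12.0, where 2 arrays were high for each. The Pax8 probe below the limit had r = −0.12 with Gata3. Gata3 and Cdh16 had r = 0.53 (rho = 0.43, permutation p = 0.0069, adjusted p = 0.00095 with Gata3 as the covariate), which was 0.20 without the 2 arrays farthest for Gata3 and 0.31 without those for Cdh16. This relation rested largely on those arrays.

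Krt18 had r = 0.47 with Gata3 (rho = 0.40, permutation p = 0.0010, adjusted p = 0.0042 with Gata3 as the covariate) and r = 0.47 with Cdh16 (rho = 0.48, permutation p = 5e-04, adjusted p = 0.36). Without the 2 arrays farthest for Krt18 these were 0.33 and 0.37. The relation with Cdh16 did not pass with either gene as the covariate (0.26 with Cdh16).

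By strain, the relation of Pax8 and Gata3 had r = 0.61 in 129S1 and 0.50 in B6, that of Gata3 and Cdh16 0.52 and 0.60, that of Krt18 and Gata3 0.54 and 0.40, and that of Krt18 and Cdh16 0.47 and 0.48. Each was positive in each strain. By sex, Pax8 and Gata3 had r = 0.68 in XX and 0.37 in XY gonads, and Gata3 and Cdh16 0.62 and 0.36.

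Lhx1 stood apart from these genes. It had r = −0.35 with Pax8 (rho = −0.34, permutation p = 0.014, adjusted p = 0.024 with Pax8 as the covariate), −0.26 with Gata3 (rho = −0.24, permutation p = 0.052), −0.17 with Krt18 and −0.05 with Cdh16 (rho = −0.06, permutation p = 0.68). Without the 2 arrays farthest for Lhx1 the first was −0.32. Leaving Lhx1 out, the median over the remaining 21 pairs was 0.17. The highest correlation of Krt8, Krt19 or Cdh1 with another gene of the list was that of Krt8 with Cdh16 (0.30).

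Covariation was also tested for each gene in turn as a covariate in the fit over all tested probes, adjusted over those probes. Of the 56 ordered pairs 7 passed, and 1 of them, Lhx1 on Pax8, was negative. The background differed widely between covariates. With Gata3, 17.1% of all probes passed positively and 14.5% negatively, with Pax8 20.9% and 20.7%, with Lhx1 10.3% and 11.7%, and with Cdh1 3.57% and 4.02%. With Krt8, Krt18 and Krt19 0% passed in either direction. With Cdh16 0.125% passed positively, 15 probes in all, and 0% negatively. Gata3 was the one gene of the list among those 15 (adjusted p = 0.039). Apart from Gata3 on Cdh16, the pairs that passed had Pax8 or Gata3 as the covariate. The count of 7 is near what the background shares give, and is not read as a result about the list.

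Pax8, Gata3 and Lhx1 also followed a pattern shared by much of the array. The first principal component of the within-group deviations held 35.1% of their variance over all tested probes. Its correlation was −0.65 with Pax8, −0.53 with Gata3 and 0.45 with Lhx1, against −0.14 with Cdh16 and −0.22 with Krt18. With that component removed, Pax8 and Gata3 had r = 0.33 and Lhx1 and Pax8 −0.09, while Gata3 and Cdh16 kept 0.55, Krt18 and Cdh16 0.45, and the median over the 28 pairs was 0.11.

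Across the 24 group means the median of the 28 correlations was 0.17 and 12 were below 0, as a description of group levels that share strain, sex and stage. Lhx1 and Cdh1 were the most alike (r = 0.70), both with their highest group mean in 129S1 XY at E12.0 (8.91 and 8.25). In 129S1 XX at E12.0 Cdh1 was also at 8.25, but Lhx1 was at 7.86. Next were Gata3 with Cdh16 (0.69) and Krt18 with Krt19 (0.68). Gata3 and Cdh16 share the high B6 XX group at E11.0, through which the Cdh16 probe was admitted. Lhx1 and Krt18 were the most opposed (−0.62).

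**Figure D3:**
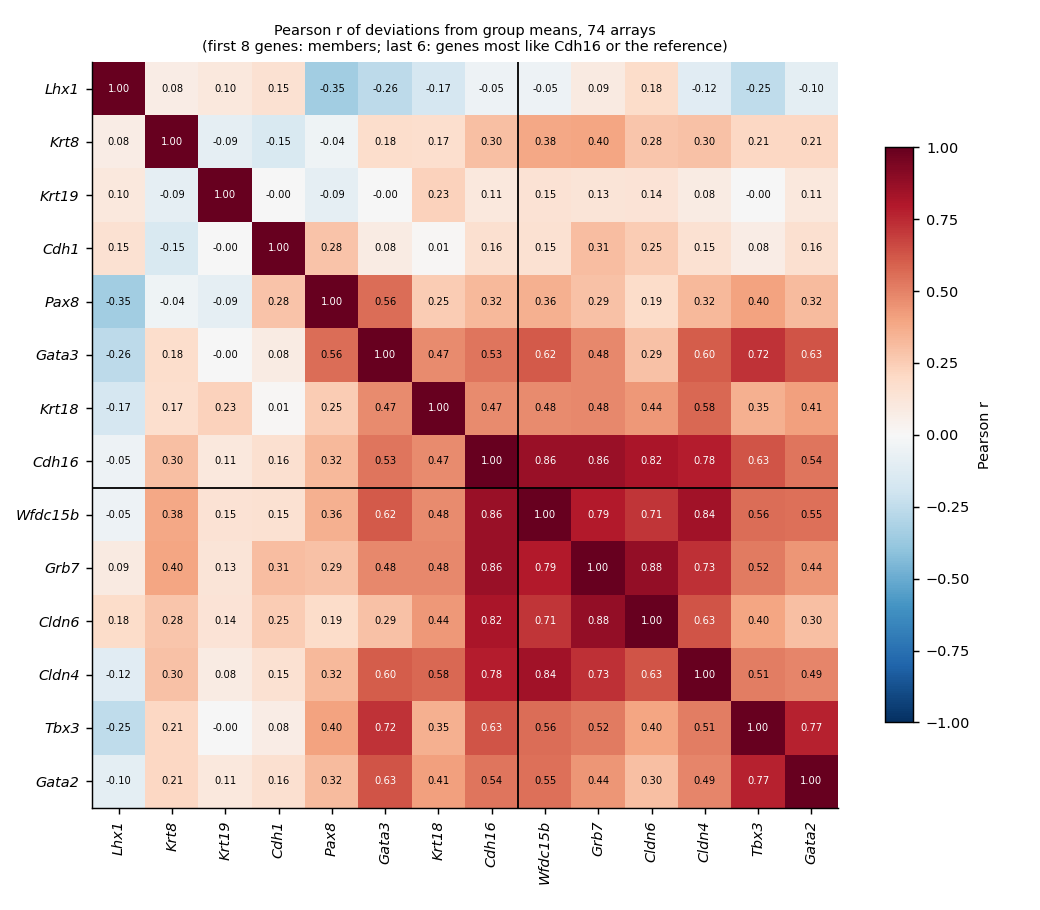
Pearson correlation of deviations from group means over 74 arrays for the 8 genes (above and left of the black lines) and for 6 genes among those most like Cdh16 or the list's tubule and duct factors; red is positive and blue negative. Cdh16 has correlations of 0.78 to 0.86 with Wfdc15b, Grb7, Cldn6 and Cldn4, higher than with any gene of its own list, and Lhx1 is below 0 with Pax8, Gata3 and Cdh16.

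The genes most like Cdh16 were not on the list of 9. They were Wfdc15b, a small secreted protein of the whey acidic protein family (r = 0.86, rho = 0.66, adjusted p = 9e-12), Grb7, an adaptor of receptor tyrosine kinases (r = 0.86, rho = 0.67, adjusted p = 6.4e-13), and the tight junction proteins Cldn6 (r = 0.82, rho = 0.56, adjusted p = 8.5e-11) and Cldn4 (r = 0.78, rho = 0.62, adjusted p = 2.7e-08). Without the 2 arrays farthest for Cdh16 these correlations were 0.73, 0.79, 0.72 and 0.62. They were chosen as the most alike of all tested probes, so their size is a description. Next came the transcription factor Tbx3 (0.63), the epithelial serine protease Prss8 (0.62), the Wnt-inactivating enzyme Notum (0.61), Osr2 (0.59), Igfbp3 (0.58) and Dpp4 (0.57). Other probes of these genes followed Cdh16 less closely. A second tested Prss8 probe had r = 0.24, further tested Tbx3 probes 0.55 and 0.42, and an untested Wfdc15b probe 0.43. Gata2, a relative of Gata3, also passed with Cdh16 as the covariate (0.54, adjusted p = 0.015).

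The deviations behind these correlations are given array by array as a description. Wfdc15b, Grb7, Cldn6 and Cldn4 were chosen by their likeness to Cdh16 and the arrays by Cdh16 itself, so shared height follows in part. The 5 arrays that stood highest for Cdh16 above their group means were 129S1 XX at E11.0 (replicate 3, by 1.11), 129S1 XX at E12.0 (replicate 2, by 0.83), B6 XY at E11.2 (replicate 3, by 0.82), 129S1 XX at E11.6 (replicate 2, by 0.74) and 129S1 XY at E11.0 (replicate 4, by 0.55). Over the same arrays in that order, Grb7 stood above its group means by 1.03, 0.66, 0.98, 0.56 and 1.01, and Cldn6 by 1.11, 0.56, 0.57, 0.71 and 1.06. Both were high on all 5 arrays.

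Wfdc15b stood above its means by 0.77, 0.46, 0.51, 0.15 and 0.26 on those arrays, and Cldn4 by 0.79, 0.35, 0.63, 0.09 and 0.22. For Krt18 the deviations were 0.36, 0.11, 0.24, 0.08 and 0.23, all positive but smaller. Gata3 (0.60, 0.15, 0.39, −0.01 and −0.16) was high on the first 3 alone, and Lhx1 (−0.15, −0.21, 0.01, 0.18 and 0.21) on no more than the last 2.

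With these 5 arrays left out together, a choice made after seeing the data, Cdh16 had r = 0.51 with Wfdc15b, 0.48 with Grb7, 0.38 with Cldn6, 0.37 with Cldn4, 0.30 with Gata3, 0.18 with Krt18 and −0.04 with Lhx1, over 69 arrays. Without them the relation of Pax8 and Gata3 had r = 0.49, and that of Cdh16 and Prss8 had r = 0.04. In the B6 XX group at E11.0, where Cdh16 was high on all 3 arrays, Gata3 also had its highest group mean (7.65) and Krt19 its highest (7.91), while Lhx1 stood at 7.48. Gata3 was nearly as high in 129S1 XX at E12.0 (7.64). The Cdh16 probe was admitted through the B6 XX group at E11.0, so this shared height is a description.

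**Figure D4:**
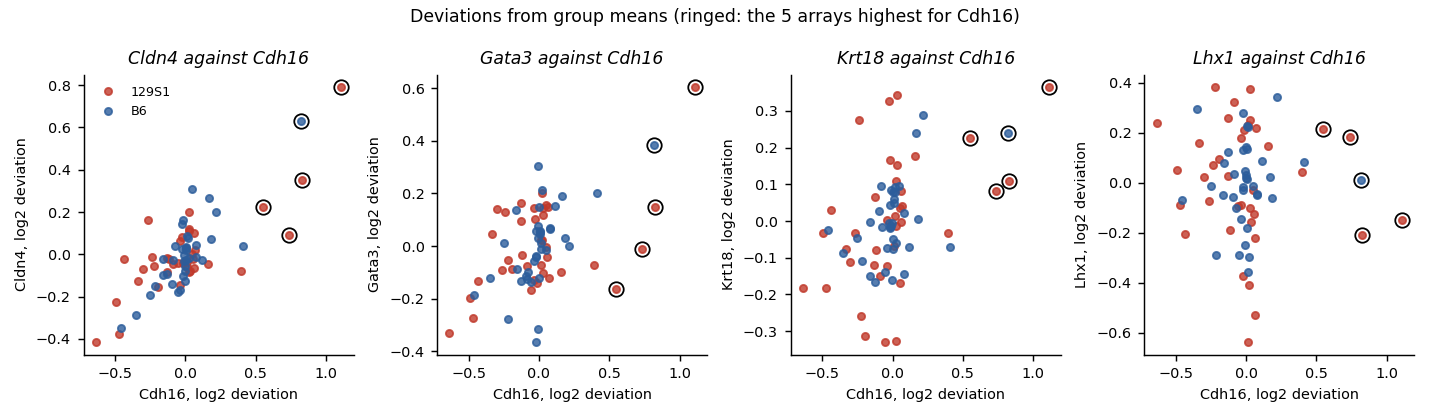
Deviation of Cldn4, Gata3, Krt18 and Lhx1 from the group mean against that of Cdh16, 1 point per array (log2, 74 arrays; red 129S1, blue B6); rings mark the 5 arrays highest for Cdh16. Cldn4 follows Cdh16 (r = 0.78), Gata3 and Krt18 do so less closely (0.53 and 0.47), and Lhx1 does not (−0.05).

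The promoters of genes that correlated positively with Cdh16 are shown beside that of Lhx1, which did not, so that their start regions can be compared. Of the former, Krt18 did not pass with Cdh16 as the covariate (limma, adjusted p = 0.26). Each sequence runs from 250 bases before to 50 bases after the transcription start (RefSeq, GRCm38.p6), 5′ to 3′ on the strand of the gene. Capitals mark CACCTG, an E-box bound by repressors of epithelial genes such as Snai1 and Zeb1, GATAA, a core bound by GATA factors, and TGACTCA, the AP-1 site, each on either strand.
Krt18 (chr15:102027966-102028265, + strand): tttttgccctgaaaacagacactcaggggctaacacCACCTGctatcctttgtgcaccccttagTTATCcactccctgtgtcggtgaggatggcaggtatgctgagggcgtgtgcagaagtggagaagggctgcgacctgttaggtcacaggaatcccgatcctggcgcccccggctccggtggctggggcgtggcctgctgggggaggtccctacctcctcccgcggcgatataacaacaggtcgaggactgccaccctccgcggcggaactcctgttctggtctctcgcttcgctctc
Gata3 (chr2:9878551-9878850, − strand): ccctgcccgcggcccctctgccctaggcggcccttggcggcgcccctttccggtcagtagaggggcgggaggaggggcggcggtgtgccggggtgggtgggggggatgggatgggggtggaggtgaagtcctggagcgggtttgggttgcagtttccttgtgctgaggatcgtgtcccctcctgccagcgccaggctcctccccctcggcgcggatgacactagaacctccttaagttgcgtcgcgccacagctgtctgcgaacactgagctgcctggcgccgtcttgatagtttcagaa
Wfdc15b (chr2:164221614-164221913, − strand): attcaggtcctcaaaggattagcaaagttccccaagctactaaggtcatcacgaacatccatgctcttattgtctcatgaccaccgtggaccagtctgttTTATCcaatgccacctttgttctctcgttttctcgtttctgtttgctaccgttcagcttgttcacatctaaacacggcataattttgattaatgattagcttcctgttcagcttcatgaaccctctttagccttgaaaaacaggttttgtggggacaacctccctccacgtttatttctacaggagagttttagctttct
Cldn6 (chr17:23679115-23679414, + strand): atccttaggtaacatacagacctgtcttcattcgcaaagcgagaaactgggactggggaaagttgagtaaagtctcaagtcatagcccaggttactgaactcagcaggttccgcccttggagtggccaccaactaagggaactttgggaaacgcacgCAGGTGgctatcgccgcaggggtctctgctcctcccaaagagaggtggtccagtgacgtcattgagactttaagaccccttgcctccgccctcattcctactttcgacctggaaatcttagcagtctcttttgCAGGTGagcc
Cldn4 (chr5:134946885-134947184, − strand): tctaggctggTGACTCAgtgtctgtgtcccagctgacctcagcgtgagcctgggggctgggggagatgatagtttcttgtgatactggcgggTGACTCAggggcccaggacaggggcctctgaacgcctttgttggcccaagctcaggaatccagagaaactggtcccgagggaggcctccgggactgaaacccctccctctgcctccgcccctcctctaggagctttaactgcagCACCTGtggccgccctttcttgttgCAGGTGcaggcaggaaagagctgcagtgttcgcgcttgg
Lhx1 (chr11:84525485-84525784, − strand): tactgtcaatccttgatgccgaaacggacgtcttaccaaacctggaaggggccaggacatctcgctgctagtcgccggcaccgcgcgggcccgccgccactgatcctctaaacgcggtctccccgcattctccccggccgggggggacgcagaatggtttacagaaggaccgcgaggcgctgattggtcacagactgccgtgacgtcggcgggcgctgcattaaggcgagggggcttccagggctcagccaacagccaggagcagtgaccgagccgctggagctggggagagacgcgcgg
All of these matched positions lie in the annotated start regions of the genes, and a match is a description of letters, not a site in use. CACCTG was found 2 times each in Cldn4 and Cldn6 and 1 time each in Krt18, Krt8, Pax8 and a Pax2 window, where 20.2% of 32851 mouse promoters of this length hold it. GATAA was found 1 time each in Krt18, Wfdc15b, Krt8 and Pax8 (25.4% of promoters), and TGACTCA 2 times in Cldn4 (5.2%). Also searched on both strands were AACCGG (6.83% of promoters), then TATAAA (13.6%), found 2 times in Krt8, and as the last GGGCGG (35.7%). The last was found 2 times each in Gata3, Cldn4 and Cldn6 and 1 time each in Pax8 and in 2 Pax2 windows. None of the 6 motifs was in the Lhx1 window. The entry of Lhx1 lies on chromosome 11, which also carries Krt19 and Grb7, while Krt8 and Krt18 are neighbours on chromosome 15. Of 13 genes looked up, 9 had a promoter entry; the others were Krt19, Cdh16, Cdh1 and Grb7.

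Lhx1 moved with another set of genes. Of 12 germ cell genes with a tested probe, out of 16 listed, 10 covaried positively with Lhx1 within groups and 0 negatively, where 10.3% and 11.7% of all probes did. They included the pluripotency factor Pou5f1 (adjusted p = 0.0018), Dppa3, a maternal factor of primordial germ cells (adjusted p = 0.00022), Dnd1, an RNA-binding protein needed for their survival (adjusted p = 0.00051), and Sox2 (adjusted p = 0.0022). Nanog and Nanos3 had positive slopes that did not pass (adjusted p = 0.23 and 0.080). The mean deviation of the 12 genes had r = 0.58 with Lhx1 (rho = 0.57, permutation p = 5e-05), 0.81 in 129S1 and 0.45 in B6, and 0.49 with the shared component removed. With 88 relations of a list to a gene computed, its Benjamini-Hochberg adjusted permutation p was 0.0015.

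Gata3 and Pax8 ran against the germ cell genes. With Gata3 as the covariate 8 of the 12 passed negatively, where 14.5% of all probes did, and with Pax8 7 did, where 20.7% did. None passed positively with either. The mean deviation of the 12 genes had r = −0.55 with Gata3 and −0.40 with Pax8, which were −0.44 and −0.22 with the shared component removed. With Cdh16 none of the 12 passed, where 0.125% of all probes passed positively and 0% negatively. Their mean deviation had r = −0.22 with Cdh16 (rho = −0.24, permutation p = 0.042, and 0.17 adjusted over the 88 relations).

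**Figure D5:**
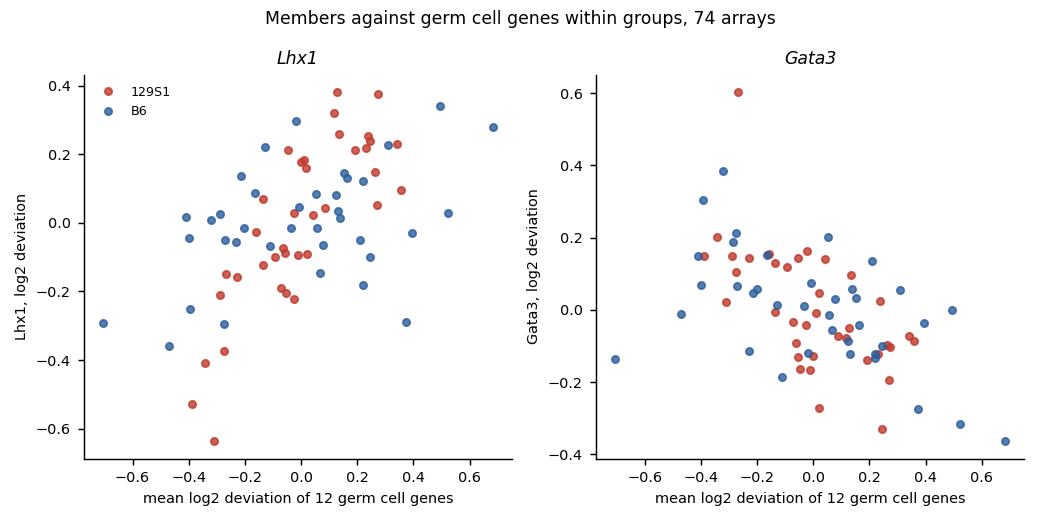
Deviation of Lhx1 (left) and Gata3 (right) from the group mean against the mean deviation of 12 germ cell genes, 1 point per array (log2, 74 arrays; red 129S1, blue B6). Lhx1 rises with the germ cell genes (r = 0.58) and Gata3 falls (r = −0.55).

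Between strains the germ cell genes had the direction of Lhx1. Of the 12, 10 were higher in 129S1, where 16.6% of all probes were, and 0 lower, among them Dazl (1.10 ± 0.07), Tfap2c (0.69 ± 0.09) and Zfp42 (0.66 ± 0.04), and 6 rose between E11.0 and E12.0 in XX and 6 in XY gonads, where 6.24% and 7.58% of all probes did. The rise of Lhx1 passed in XY, and its change in XX was −0.04 (adjusted p = 0.91). Their mean level was 8.75 to 10.11 in 129S1 (median 9.42) and 8.24 to 10.23 in B6 (median 8.98). The part of germ cell content in the strain difference and the rise of Lhx1 was not tested.

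A further 25 genes of the mesonephric tubules and duct were followed, of which 23 had a probe and 7 a tested one. Wnt9b, Ret and Calb1, the ligand, receptor and calcium-binding protein by which the duct is often recognised, were not among the 7. Bmp7, a ligand of nephrogenic tissue and of germ cells, and Wfdc2 were higher in 129S1, by 0.48 ± 0.04 and 0.39 ± 0.06, and Cdh6, a cadherin of nephric tubules, was lower (−0.25 ± 0.04). Cldn4, Cldn6, Cldn7 and Npnt did not pass for strain. Of the 7, Cldn4 and Cldn6 covaried with Cdh16, Wfdc2 with Lhx1 (adjusted p = 0.012), and Cldn4 positively but Cldn7 and Npnt negatively with Pax8 and with Gata3. Cldn6 fell between E11.0 and E12.0 in XX gonads (−0.70 ± 0.20, adjusted p = 0.013). The mean deviation of the 7, which holds 2 genes already named as like Cdh16, had r = 0.71 with Cdh16 (rho = 0.47, permutation p = 9e-05), 0.52 without the 2 arrays farthest, and 0.34 with Lhx1.

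The mesenchyme around the tubules was followed through 17 genes, of which 13 had a tested probe. With Cdh16 as the covariate 1 of the 13 passed positively, where 0.125% of all probes did. It was Osr2, an odd-skipped factor of the mesonephric mesenchyme (r = 0.59). With Gata3 6 passed positively and 1 negatively, where 17.1% and 14.5% of all probes did. With Lhx1 4 passed, all negatively, where 11.7% did, namely Foxc2, Foxd1, Nr2f1 and Pdgfra. Between E11.0 and E12.0, 5 of the 13 fell and 2 rose in XX gonads, where 6.03% and 6.24% of all probes did, and 6 fell and 3 rose in XY, where 9.79% and 7.58% did. The change of Foxc1, a forkhead factor, was −1.86 ± 0.22 in XX and −1.17 ± 0.23 in XY gonads, that of Osr2 −1.43 ± 0.24 in XX, and that of Nr2f1, a nuclear receptor, −1.55 ± 0.21 in XY. The mean level of the 13 was 8.69 to 9.81 over all arrays.

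Of 6 genes of the coelomic epithelium, the surface layer of the gonad, with a tested probe, Upk1b, Lrrn4 and Cxadr covaried positively with Pax8, where 20.9% of all probes did, and Rspo1 negatively, where 20.7% did. Aldh1a2 and Upk3b did not pass (adjusted p = 0.71 and 0.33). The mean deviation of the 6 had r = 0.71 with Pax8 (rho = 0.73, permutation p = 1e-05, the smallest the permutations can give), 0.77 in 129S1 and 0.64 in B6, and 0.49 with Gata3 (rho = 0.53). With the shared component removed these were 0.57 and 0.29. The mean deviation of 12 epithelial keratin and junction genes had r = 0.56 with Pax8, 0.41 with Gata3 and 0.45 with Cdh1. Their permutation p, adjusted over the 88 relations, was 0.0021, 0.042 and 0.026. Its lowest r was −0.30, with Krt19 (0.21). Without the shared component the first 3 were 0.13, 0.01 and 0.32. The mean level of 8 genes of gonadal somatic identity, 9.67 to 10.25 over all arrays, varied less, and their mean deviation had r = −0.27 with Cdh16 and −0.47 with Cdh1. Single genes went both ways with Cdh1, from Lhx9 (−0.52) and Tcf21 (−0.43) to Zfpm2 (0.08) and Wt1 (0.33). With Cdh1 as the covariate 2 of the 8 passed negatively, where 4.02% of all probes did, and 0 positively.

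Each gene of the list had its own nearest neighbours over the tested probes. Those of Gata3 were Tbx3 (r = 0.72), Lhfp (0.72) and Ltbp1 (0.67), those of Krt18 were Cldn4 (0.58), Qprt (0.55) and Guca1a (0.50), and those of Lhx1 were Ddx27 (0.68), Rcl1 (0.67) and Ube2o (0.67). Pax8 was nearest to Doc2b (0.75), Sltm (0.74) and Plin3 (0.74), and Cdh1 to Sema7a (0.62), Phax (0.58) and Rps24 (0.58). Krt8 was nearest to Irf9 (0.53), Elovl6 (0.53) and Pycrl (0.50), and Krt19 to Irf5 (0.62), Rab29 (0.58) and Rpusd1 (0.58). Cldn4 and Tbx3 were the neighbours that Krt18 and Gata3 shared with Cdh16. Against the mean deviation of Lhx1, Pax8, Gata3 and Cdh16, the 4 tubule and duct markers with a tested probe, the highest were Wfdc15b (0.81), Grb7 (0.80), Cldn6 (0.72), Cldn4 (0.72), Tbx3 (0.63), Prss8 (0.63), Notum (0.59), Gata2 (0.59), Mmp17 (0.58) and Plekha1 (0.57), and the lowest Calr (−0.49), Srsf1 (−0.49), Dedd (−0.48), Dhx29 (−0.48) and Copz1 (−0.47).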

How the data were processed

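Transcripts were measured on Illumina MouseRef-8 v2.0 bead arrays. The log2 values used here are those the authors deposited for 74 arrays, made with beadarray in R 2.12.0 and quantile normalized. A file of unnormalized intensities and detection p-values (74 columns of each) was not used, because its columns were not paired with samples; chip and scan were therefore not tested. Each strain and stage was drawn from more than 1 litter, per the study's methods, and which arrays shared a litter is not given in the sources used here. Rows were named by the array's annotation (23978 probes with a symbol).

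The 12000 brightest probes were kept, ordered by the second brightest array of each probe's brightest group. A model of 24 group means (50 residual degrees of freedom) was fitted in limma (version 3.58.1; R 4.3.3), p-values being adjusted by Benjamini-Hochberg over all kept probes, with a threshold of 0.05. For single comparisons the adjustment was made within each comparison. Covariation was tested by adding 1 gene's deviation from its group means as a covariate. Correlations used deviations from group means, 1 kept probe a gene, with permutation p-values two-sided from 100000 permutations of arrays within groups. On simulated data with noise independent between probes, most of the largest strain changes and of the strong covariation built in were recovered. The real deviations held a shared component that the simulation lacked, so it does not show how the covariation test behaves under one. All tests were two-sided.

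Members and gene lists were chosen with earlier results of these data known. All 9 genes were named, with the 3 genes nearest each member. Also named were the highest and lowest correlations over tested probes with the mean of Lhx1, Pax8, Gata3 and Cdh16. From the germ cell, coelomic, mesenchyme and further tubule and duct lists, genes were named in part by smallest p. Lists of pre-Sertoli, pre-granulosa, endothelial, leukocyte and red blood cell genes were also computed and are not described. Genes named because they passed with Lhx1 or Cdh16 as the covariate, the other kept genes of the further tubule and duct list and the rest of the 10 nearest Cdh16 were chosen after their values were seen. Promoters came from RefSeq (GRCm38.p6), with entries for 6 of the 9 genes. Alternatives were all probes, 15000 probes, median centring, array weights, the shared component as a covariate, a replicate block, each array left out, and Spearman correlation. Deposited values carried no depth; the number of arrays limits the precision.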

Additional observations from a re-analysis of the deposited data

Results flagged for a closer look

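Within a group of 4 or 5 arrays, 22 combinations of a probe and a group were looked at for an array far from the others, a measure that chance alone passes in about 1 of 20 groups, and 2 passed. In 129S1 XY at E11.0, Lhx1 read 7.35 on replicate 3 and 8.05 to 8.24 on the other 4 arrays, a gap of 0.79 of the whole range. In B6 XY at E11.2, Cdh16 read 8.24 on replicate 3 and 7.07, 7.17 and 7.20 on the other 3, a gap of 0.89 of the range. The sex difference of Krt18 differed between stages (sex by stage term, limma, adjusted p = 0.035).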

How the results depend on the processing

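No direction reversed. Of 2268 values of the 28 single differences that passed, over all alternatives, 2203 kept their call and 65 lost it. With all probes of the array, the sex by stage term passed for 0 genes instead of 1, the change in XX for 0 instead of 1 (also with 15000 probes), the change in XY for 1 instead of 2 and single sex comparisons for 1 instead of 2; more tests were adjusted for. With array weights (0.32 to 5.44) the stage term passed for 5 genes instead of 2, sex by stage for 2, stage by strain for 1 instead of 0, the change in XY for 1, single sex comparisons for 6 and single changes for 5 instead of 3. With the shared component as a covariate, stage passed for 5, sex by stage for 2 and single sex comparisons for 4, and 2 covarying pairs instead of 7 passed; without the 5 arrays highest for Cdh16, 4 did. Without those 5 arrays Cdh16 also passed for strain (−0.12, limma, adjusted p = 0.015). The cause was not tested. Here and below, the counts of differences that passed, of the change in XX and of single changes include Cdh16, whose probe was admitted through B6 XX at E11.0.

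Leaving out each array in turn gave 5 to 5 genes for strain, by term and by contrast, 2 to 4 for stage, 1 to 2 for sex, by term and by contrast, 0 to 2 for sex by stage, 0 to 0 for the other interactions, 0 to 1 for the change in XX, 0 to 3 for that in XY, 1 to 3 single sex comparisons, 11 to 15 single strain comparisons, 1 to 4 single changes, 5 to 9 covarying pairs and a median pair correlation of 0.086 to 0.138. Replicate numbers were not taken to pair the arrays, since no source says that a number marks a shared litter or batch. Same-numbered arrays of different groups were nonetheless more alike. Their median correlation of deviations was 0.12 (806 pairs, 51.4% over 0.1), against −0.04 for differently numbered ones (1815 pairs, 31.3%). What same-numbered arrays share was not tested, and correlations outside the block setting keep it. With the replicate block, strain passed for 5 genes, single strain comparisons for 12 instead of 13, covarying pairs for 5 and the median pair correlation was 0.13; Lhx1 in XY at E11.0 had 0.54 (adjusted p = 0.096).

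Limits: Cdh16, Pax8, Gata3 and Krt19 lay close to the dimmest probes, where differences are compressed, and Pax2 could not be read there. Groups of 2 or 3 arrays leave single comparisons resting on 1 array.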
